A study of Mus musculus with 8 samples.

Results

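The genes described here encode subunits of voltage-gated calcium channels, and were followed in mouse dorsal root ganglia (DRG), the clusters of sensory nerve cell bodies beside the spinal cord, before and after inflammation of a hind paw. They are the 10 genes named Cacna1a, Cacna1b, Cacna1c, Cacna1d, Cacna1e, Cacna1h, Cacna2d1, Cacna2d2, Cacna2d3 and Cacnb4, taken by symbol from a count table of 24421 genes. In all, 17328 genes passed the filter on low counts, among them all 10 subunit genes.

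Male wild-type (WT) C57/Bl6JRj mice 8 to 12 weeks old received 20 µl of 1% carrageenan, a seaweed polysaccharide that inflames tissue, under the skin of the left hind paw. Ganglia of lumbar levels L3 to L5 were taken before the injection (0d) and on days 1, 3 and 30 after it (1d, 3d and 30d). Each of the 4 time points had 2 libraries, each made from RNA pooled over 2 to 3 mice, so a replicate is a pool and not an animal. No library of vehicle-injected mice, or of uninjected mice at the later time points, was analysed here, so the injection, the handling and the time elapsed cannot be told apart. The sources used here do not say whether ganglia of the injected side alone were taken.

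Voltage-gated calcium channels open when a nerve cell is depolarised and let calcium in, which triggers release of transmitter at the terminals and signals to the nucleus in the cell body. Each channel has a pore-forming α1 subunit. In the high-voltage-activated classes it is joined by an intracellular β subunit that carries the pore to the membrane and an extracellular α2δ subunit that raises the number of channels at the surface, whereas the low-voltage-activated T-type pores work without a β subunit. In sensory neurons the N-type channel of Cacna1b and the P/Q-type channel of Cacna1a serve release at the central terminals. The α2δ proteins of Cacna2d1 and Cacna2d2 are the binding sites of gabapentin and pregabalin, drugs given for neuropathic pain.

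The libraries held 44123208 to 73580338 counts in genes, and the 10 subunit genes together took 0.104% to 0.116% of them. Single counts of these genes ran from 477 for Cacna1d to 19448 for Cacna2d1, so the spread between pools, and not counting, set most of the error. The labels give DRG neurons as the cell type, whereas whole ganglia were dissected. All 14 sensory neuron markers looked at were above 0 in every library, and so were all 4 markers each of Schwann cells and satellite glia, which surround axons and cell bodies. In such bulk tissue fewer cells of a type and less RNA per cell cannot be told apart.

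The sequences just upstream of the 3 α2δ genes are shown because these genes hold both the subunit gene that passed the test after injection, Cacna2d1, and a paralog whose counts at 1d and 3d lay on the other side of 0d, Cacna2d2. Each line gives the 250 bases before the annotated start on the strand of the gene, 5′ to 3′, from RefSeq on build GRCm38.p6. The regions are chr5:15934441-15934690 on the plus strand for Cacna2d1, chr9:107399630-107399879 on the plus strand for Cacna2d2 and chr14:29721865-29722114 on the minus strand for Cacna2d3. Capitals mark GGGCGG, the GC box, or its reverse complement CCGCCC, and neighbouring boxes run together.
Cacna2d1: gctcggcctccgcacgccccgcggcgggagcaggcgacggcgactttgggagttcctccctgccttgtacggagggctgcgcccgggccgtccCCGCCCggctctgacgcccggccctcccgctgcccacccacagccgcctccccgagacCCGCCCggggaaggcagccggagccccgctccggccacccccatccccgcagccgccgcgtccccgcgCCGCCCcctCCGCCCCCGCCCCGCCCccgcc
Cacna2d2: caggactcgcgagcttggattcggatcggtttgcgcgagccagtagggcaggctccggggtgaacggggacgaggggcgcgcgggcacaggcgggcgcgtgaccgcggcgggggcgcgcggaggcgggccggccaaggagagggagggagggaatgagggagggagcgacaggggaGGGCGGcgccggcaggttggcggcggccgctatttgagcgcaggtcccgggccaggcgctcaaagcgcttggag
Cacna2d3: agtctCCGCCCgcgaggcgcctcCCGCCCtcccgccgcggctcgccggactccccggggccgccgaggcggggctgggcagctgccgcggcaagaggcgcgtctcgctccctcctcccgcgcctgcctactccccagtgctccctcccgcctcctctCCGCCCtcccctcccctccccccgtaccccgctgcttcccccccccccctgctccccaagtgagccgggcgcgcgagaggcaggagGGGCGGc

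All 3 windows were rich in G and C, with 82.4% for Cacna2d1, 74.4% for Cacna2d2 and 80.0% for Cacna2d3. Of the 32851 promoter windows of this length, 99.4%, 95.4% and 98.8% had a lower share. Cacna2d1 had 6 GC boxes on either strand, Cacna2d2 had 1 and Cacna2d3 had 4, and 32.7% of all windows held at least 1. The windows did not contain the letters TATAAA, TGACGTCA (the cAMP response element) or GAAANNGAA (a core of the interferon-stimulated response element) on either strand, which 12.4%, 1.55% and 7.13% of all windows held. Of the 10 genes, 8 had a promoter entry in the RefSeq table.

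Levels of different genes were compared as RPKM, counts scaled to library size (by TMM) and to exon length, because the exons of these genes run from 3695 bases for Cacna2d3 to 14774 bases for Cacna1c. Cacna2d1 was the most abundant of the 10 transcripts with 32.8 ± 2.06 RPKM (SD, n = 8 libraries of all time points), above 85.8% of the genes tested. Its lowest library, at 29.6 RPKM, lay above the highest of every other gene of the 10. Next came Cacna1a with 21.2 ± 1.31 RPKM, Cacna1b with 20.9 ± 1.24, Cacna2d3 with 18.5 ± 0.800 and Cacnb4 with 18.4 ± 0.739 (SD, n = 8 each). Neighbours within this group of 4 had overlapping ranges, and Cacna1a exceeded Cacna1b in only 4 of 8 libraries. Cacna1b, however, exceeded Cacna2d3 in all 8.

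A second group followed below a gap, from 17.5 RPKM in the lowest Cacnb4 library to 10.7 RPKM in the highest Cacna1h library. Cacna1h, the T-type pore, which opens at low voltage and shapes the excitability of sensory neurons, had 9.85 ± 0.555 RPKM. Cacna2d2 had 8.54 ± 0.544 RPKM and Cacna1c, an L-type pore that couples depolarisation to gene expression, 7.30 ± 0.440 RPKM (SD, n = 8 each). Ranges of neighbours overlapped here too, although Cacna1h exceeded Cacna2d2 in 7 of 8 libraries and Cacna2d2 exceeded Cacna1c in 8 of 8. The lowest were Cacna1d, the other L-type pore, with 1.54 ± 0.182 RPKM and Cacna1e, the R-type pore, with 1.01 ± 0.124 RPKM (SD, n = 8 each).

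**Figure D1:**
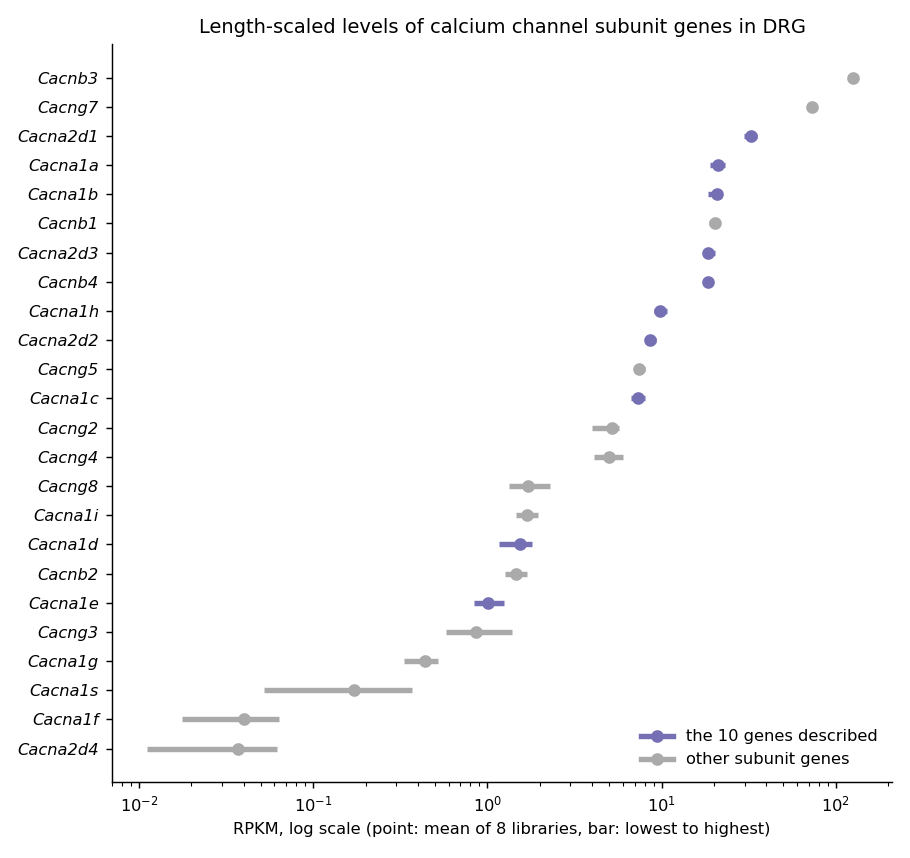
Length-scaled level (RPKM, log axis) of the 24 calcium channel subunit genes that passed the filter, with the mean of 8 libraries as a point and the lowest to highest library as a bar. Cacna2d1 stands highest of the 10 genes described at 32.8 RPKM, and Cacna1e lowest at 1.01 RPKM, while Cacnb3 and Cacng7 lie above them all.

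Of the 6 pore genes among the 10, Cacna1a and Cacna1b made up the largest shares, with medians of 34.0% and 33.9% of the summed RPKM of these 6. The pore genes Cacna1f, Cacna1g, Cacna1i and Cacna1s were not in this sum. Cacna1h held 16%, Cacna1c 11.8%, Cacna1d 2.51% and Cacna1e 1.63%. The P/Q-type and N-type pores had similar shares in every library, from 33.3% to 35.3% and from 32.9% to 34.5%. Among the α2δ genes Cacna2d1 held 51.8% to 57.8%, Cacna2d3 29.2% to 32.8% and Cacna2d2 13% to 16.1%. Cacnb4 was not the main β transcript of the ganglion. It held 10.4% to 11.7% of the summed RPKM of the 4 β genes, against 74.5% to 76.8% for Cacnb3, 11.7% to 12.7% for Cacnb1 and 0.775% to 1.07% for Cacnb2.

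The other 16 subunit genes complete this picture. Cacnb3 had 125 ± 6.32 RPKM and Cacng7, one of the γ subunits that serve as partners of AMPA receptors, 72.8 ± 2.12 RPKM (SD, n = 8 each). Cacnb1 had 20.1 RPKM, Cacng5 7.44, Cacng2 5.20, Cacng4 5.01, Cacng8 1.70, Cacna1i 1.70, Cacnb2 1.45, Cacng3 0.856, Cacna1g 0.440, Cacna1s 0.172, Cacna1f 0.0400 and Cacna2d4 0.0371 RPKM as means of the 8 libraries. Among T-type pores Cacna1h was thus well above Cacna1i and Cacna1g. Cacng1 and Cacng6 did not pass the filter, with at most 17 and 14 counts in a library.

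The question of the time course was which transcripts differ from 0d at each stage of the inflammation. Of the 10 genes, 1 passed the test, Cacna2d1 at 3d, and it rose. Cacna2d1 (chr5:15934691-16374511 of mm10, plus strand) had 222 and 230 CPM (counts scaled to library size by TMM) before injection, 247 and 249 on day 1, 266 and 266 on day 3, and 241 and 243 on day 30. Both libraries of each later time point lay above both of 0d, and those of 3d lay above all others.

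At 3d Cacna2d1 had a mean of 266 ± 0.202 CPM against 226 ± 5.77 CPM at 0d (SD, n = 2 each), 17.6% more. The log2 fold change was 0.23 (standard error 0.039, 95% interval 0.15 to 0.32, adjusted p = 0.0237 in edgeR's quasi-likelihood test over all genes). At 1d its log2 fold change was 0.13 (95% interval 0.049 to 0.22, adjusted p = 0.476) and at 30d 0.097 (0.013 to 0.18, adjusted p = 0.346). The step from 1d to 3d was 0.10 (0.016 to 0.18, adjusted p = 0.937), or 0.061 with a trend in gene length removed from each library, and that from 3d to 30d was -0.14 (-0.22 to -0.053, adjusted p = 0.140), neither past the threshold of 0.05.

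The call of Cacna2d1 at 3d was not kept under every setting. Without replicate 1 of 0d the log2 fold change was 0.21 (edgeR adjusted p = 0.133), without replicate 1 of 3d 0.24 (adjusted p = 0.484) and without replicate 2 of 3d 0.23 (adjusted p = 0.516). With a trend in gene length removed from each library it was 0.21 (adjusted p = 0.200), with a trend in GC content removed 0.23 (adjusted p = 0.0775), and without robust estimation 0.23 (adjusted p = 0.0629). Of the 14 sensory neuron markers, 2 genes of nociceptive neurons were called at 3d, where 0.219% of all genes were. Both were higher than at 0d, with log2 fold changes of 0.32 for Calca, which encodes the neuropeptide CGRP, and 0.22 for Scn10a, a sodium channel (edgeR adjusted p = 0.0237 and 0.0499). Scn10a had the largest p of the 38 genes called. The 14 sensory neuron markers summed to 20906 and 21215 CPM at 3d against 20610 and 20617 CPM at 0d, and 9 of the 14 had a positive log2 fold change. The 6 skeletal muscle markers, in contrast, summed to 57.9 to 58.7 CPM at 3d and 25.2 to 55.2 CPM at 1d, below the 64.3 to 124 CPM of 0d, and none of the 6 had a positive log2 fold change at either time. Myh1, a myosin heavy chain of fast muscle, fell by 1.47 at 1d and fell by 1.61 at 3d on the log2 scale (edgeR adjusted p = 0.0324 and 0.0237). The 4 satellite glia markers summed to 2834 and 2833 CPM at 3d against 2931 and 2907 CPM at 0d, with 1 of the 4 positive. The part of the neuronal, glial and muscle transcripts in the value of Cacna2d1 was not tested.

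The other α2δ genes gave different values. Cacna2d2 (chr9:107399880-107529343, plus strand) had 50.9 and 47.7 CPM before injection, 44.3 and 45.7 on day 1, 44.2 and 44.7 on day 3, and 51.6 and 49.3 on day 30. Its 1d and 3d libraries lay below both of 0d, and the 30d libraries overlapped with them. The log2 fold change was -0.13 at 1d (95% interval -0.26 to 0.0025), -0.15 at 3d (-0.28 to -0.015) and 0.035 at 30d (-0.097 to 0.17), and adjusted p was 1.00, 0.758 and 0.858 in edgeR. Without replicate 1 of 0d the 1d value was -0.081. From 3d to 30d it was 0.18 (0.050 to 0.31, edgeR adjusted p = 0.212).

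Cacna2d3 (chr14:28904943-29721864, minus strand), whose loss is known to impair the processing of noxious heat, had 67.8 and 68.0 CPM before injection, 64.9 and 66.0 on day 1, 66.3 and 68.9 on day 3, and 69.5 and 74.5 on day 30. The log2 fold changes were -0.053, -0.0071 and 0.084, with 95% intervals of -0.17 to 0.065, -0.12 to 0.11 and -0.033 to 0.20. The 30d value was 0.13 without replicate 1 of 30d and 0.032 without replicate 2 of 30d.

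The ratio of Cacna2d1 to Cacna2d2 within each library, as RPKM, was 3.23 and 3.57 before injection, 4.12 and 4.03 on day 1, 4.44 and 4.40 on day 3, and 3.46 and 3.64 on day 30. All 4 libraries of 1d and 3d lay above the 4 libraries of 0d and 30d, which overlapped. The ratio was looked at because of the values of both genes, and is given as a description with no test. The summed RPKM of the 3 α2δ genes was 57.2 and 57.7 before injection, 58.5 and 59.4 on day 1, 61.4 and 62.2 on day 3, and 60.3 and 61.4 on day 30. Unlike the ratio, the sum at 30d lay above both libraries of 0d and overlapped with 3d.

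**Figure D2:**
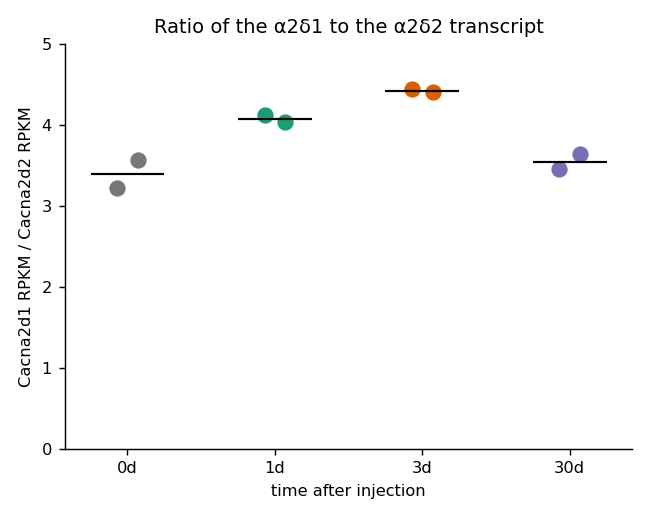
Ratio of Cacna2d1 to Cacna2d2 (RPKM over RPKM, vertical axis from 0) in each library by time after injection, with the mean of both libraries as a line. The libraries of 1d and 3d sit between 4.03 and 4.44, and those of 0d and 30d between 3.23 and 3.64.

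None of the 6 pore genes passed the threshold at any time point. Cacna1b (N-type, chr2:24603889-24763152, minus strand), the target of the analgesic ziconotide, had 195 and 181 CPM before injection, 211 and 197 on day 1, 211 and 214 on day 3, and 214 and 211 on day 30. The later libraries all lay above those of 0d. Its log2 fold change was 0.12 at 1d (95% interval 0.012 to 0.22), 0.18 at 3d (0.073 to 0.28) and 0.18 at 30d (0.074 to 0.28), with edgeR adjusted p of 1.00, 0.299 and 0.180. The 1d value was 0.17 without replicate 1 of 0d, 0.061 without replicate 2 of 0d and 0.062 without replicate 1 of 1d.

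Cacna1a (P/Q-type, chr8:84415364-84640249, plus strand) had 166 and 151 CPM before injection, 165 and 157 on day 1, 171 and 178 on day 3, and 174 and 182 on day 30. The 1d libraries lay between those of 0d, and the 3d and 30d libraries above them. The log2 fold changes were 0.025, 0.14 and 0.17, and the 95% interval at 30d was 0.056 to 0.28 (edgeR adjusted p = 0.233). Without replicate 2 of 0d the values at 3d and 30d were 0.072 and 0.10, and without replicate 1 of 0d the value at 3d was 0.21.

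The L-type pores differed in how well they were measured. Cacna1c (chr6:118587240-119196409, minus strand) had 106 and 98.9 CPM before injection, 111 and 101 on day 1, 109 and 105 on day 3, and 113 and 119 on day 30, so that the 30d libraries alone lay clear of 0d. Its log2 fold change at 30d was 0.17 (95% interval 0.050 to 0.30, edgeR adjusted p = 0.253). Cacna1d (chr14:30039941-30491156, minus strand) had 14.6 and 13.9 CPM before injection, 14.5 and 10.9 on day 1, 14.4 and 14.4 on day 3, and 15.5 and 16.9 on day 30. Replicate 2 of 1d was the lowest of its 8 libraries, and without it the log2 fold change at 1d was 0.024 in place of -0.17. Over 5.62% of its exon length Cacna1d overlaps the gene Chdh, and reads there were counted for both.

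Cacna1e (R-type, chr1:154392519-154725920, minus strand) had the largest log2 fold change of the 10 genes in any comparison, 0.42 at 30d (standard error 0.11, 95% interval 0.17 to 0.66, edgeR adjusted p = 0.182). Its libraries stood at 11.7 and 10.6 CPM before injection, 13 and 12.1 on day 1, 13 and 12.6 on day 3, and 15.9 and 13.9 on day 30. All later libraries were above those of 0d, and the 30d libraries above all others. The spread of this low transcript was wide, with 11.1 ± 0.791 CPM before injection and 14.9 ± 1.38 CPM at 30d (SD, n = 2 each).

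Cacna1h (T-type, chr17:25374287-25433783, minus strand) had 74.7 and 78.9 CPM before injection, 82.9 and 76.6 on day 1, 84.9 and 78.5 on day 3, and 88.2 and 83.6 on day 30. Only at 30d did its libraries lie apart from 0d, with a log2 fold change of 0.16 (95% interval 0.033 to 0.29, edgeR adjusted p = 0.301). The gene Tpsg1 overlaps 1.90% of its exon length.

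Cacnb4 (chr2:52428320-52676609, minus strand), the one β gene of the 10, had 152 and 155 CPM before injection, 161 and 156 on day 1, 165 and 172 on day 3, and 156 and 161 on day 30. Like Cacna2d1 it had its highest mean at 3d, where the log2 fold change was 0.13 (95% interval 0.037 to 0.23, edgeR adjusted p = 0.516). Counting took no account of strand, and exons of A430018G15Rik, an opposite-strand gene of GENCODE that was not among the counted genes, cover 16.5% of its exon length. Reads of both genes over these bases cannot be told apart, and how many came from A430018G15Rik was not measured. Cacnb3, the main β transcript, had log2 fold changes of 0.040, 0.048 and -0.084 at 1d, 3d and 30d.

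**Figure D3:**
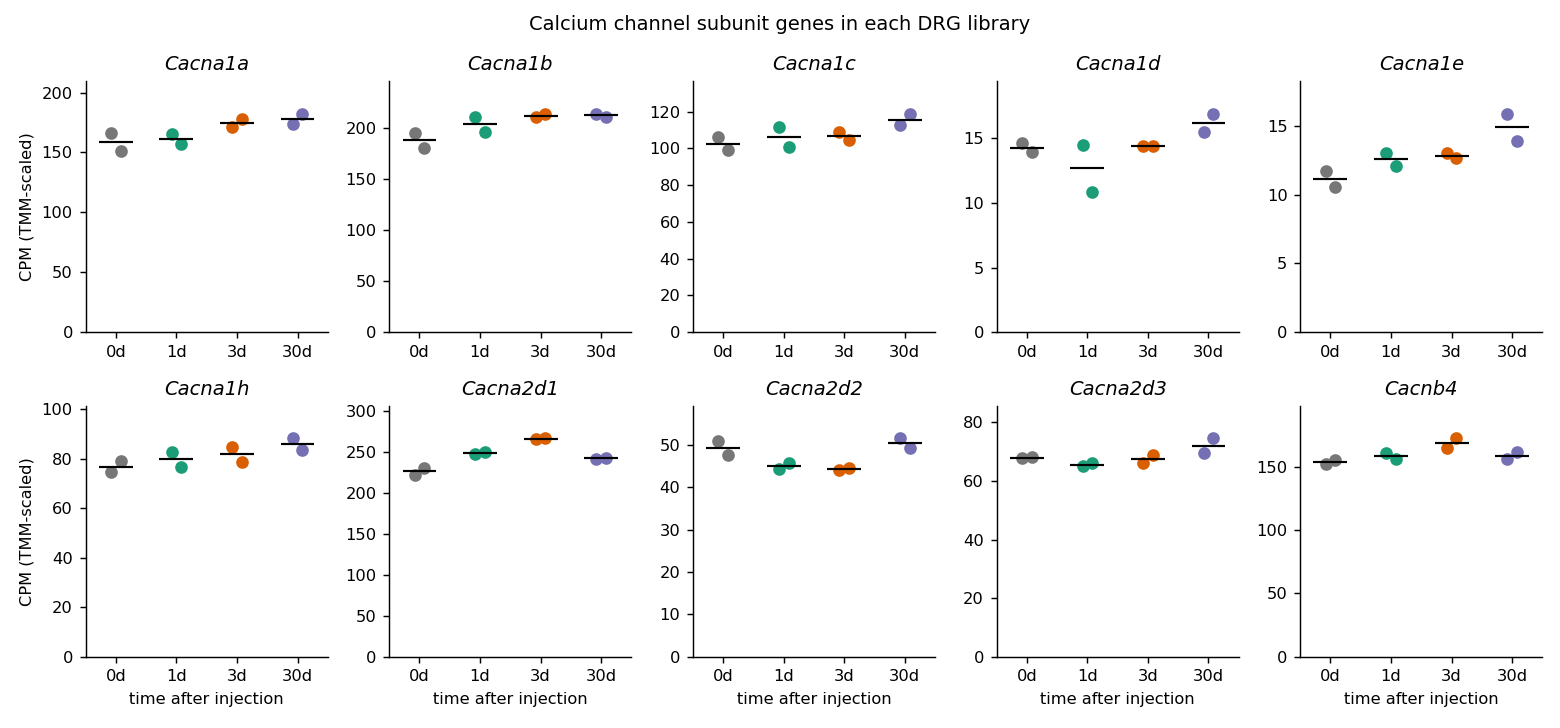
Level of each of the 10 genes (CPM after TMM scaling, vertical axes from 0) in the 2 libraries of each time point, as points, with their mean as a line. The libraries of Cacna2d1 reach 266 CPM at 3d from 222 and 230 CPM at 0d, and those of Cacna2d2 are lowest at 1d and 3d.

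Read over the 10 genes, the 1d comparison had no call in edgeR, DESeq2 or limma-voom, against 60 called by edgeR of 17328 genes in all (0.346%). DESeq2 called 110 of the 16320 genes to which it gave an adjusted p (0.674%), and limma-voom 0.283% of all genes. At 1d both libraries lay above both of 0d for 4 of the 10, where 15.5% of all genes did so, and below for 2, where 16.4% of all genes did so. The median log2 fold change of the 10 was 0.049 against -0.0032 over all genes tested, and 7 of 10 were positive against 48.8%. This median was decided by single libraries, since it was -0.0074 without replicate 1 of 1d and 0.089 without replicate 2 of 1d. Unadjusted p was under 0.05 for 2 of the 10 and for 4.47% of all genes. The 4 Schwann cell markers summed to 7567 and 7618 CPM at 1d against 10668 and 7795 CPM at 0d, with none positive. Satellite glia markers summed to 2704 and 2828 CPM against 2931 and 2907 CPM, with 1 of the 4 positive. All 5 red blood cell markers were positive, with sums that overlapped with 0d. None of these markers was called at 1d, and their part in the values of the 10 genes was not tested.

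At 3d the single call, 1 of 10, stood against 38 of 17328 genes (0.219%). The 10 genes were chosen with earlier results of these data known. Their shares at each time point are thus no independent test against all genes. DESeq2 and limma-voom also called Cacna2d1, beside 111 of the 14640 genes with an adjusted p in DESeq2 (0.758%) and 0.144% of all genes in limma-voom. Both libraries lay above both of 0d for 5 of the 10 (19.9% of all genes) and below for 1 of the 10 (19.6% of all genes). The median log2 fold change was 0.11 against -0.0021 over all genes, with 8 of 10 positive against 49.2%. With the length trend removed the median of the 10 was 0.081, and 7 of the 10 were positive. Unadjusted p was under 0.05 for 5 of the 10 and for 5.94% of all genes.

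At 30d the 10 genes had the same sign. No gene of the 10 was called by edgeR, DESeq2 or limma-voom, and edgeR called 4 of 17328 genes in all (0.0231%), DESeq2 186 of the 14976 genes with an adjusted p (1.24%) and limma-voom 0.0115% of all genes. All 10 had a log2 fold change above 0, from 0.035 to 0.42 with a median of 0.16, where 49.9% of all genes were positive. Both libraries lay above both of 0d for 9 of the 10 (19.4% of all genes) and below for 0 of the 10 (20.2% of all genes). Unadjusted p was under 0.05 for 6 of the 10 and for 12.3% of all genes.

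The length of the transcripts moved with these values. The longest 10% of the genes tested, those with more than 6187 exon bases, had at 30d a median of 0.046 for this change, and the shortest 10% -0.042. With the trend in length removed from each library, the median of the 10 genes at 30d was 0.087 and 8 of 10 were positive. The log2 fold change at 30d was then 0.11 for Cacna1a and Cacna1b, 0.077 for Cacna1c, 0.12 for Cacna1d, 0.098 for Cacna1h and 0.040 for Cacna2d1, each over 1.5 times smaller than without this step. That of Cacna1e changed less, to 0.33 from 0.42. Without replicate 2 of 0d 9 of 10 were positive. All 3 comparisons with 0d use the same 2 libraries of 0d, so their values are not independent.

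The sums of glial markers were lower at 30d than at 0d. The 4 satellite glia markers summed to 2427 and 2514 CPM at 30d against 2931 and 2907 CPM at 0d, of which Apoe made up 1819 and 1911 CPM at 30d and 2286 and 2243 CPM at 0d. Apoe fell by 0.28 on the log2 scale (edgeR adjusted p = 0.0322), and 1 of the other markers had a positive log2 fold change, of 0.12. The call of Apoe was lost without robust estimation and with the compared groups alone, where edgeR called no gene at 30d. The 4 Schwann cell markers summed to 5351 and 7580 CPM at 30d against 10668 and 7795 CPM at 0d, with no single call and none of the 4 positive. Sensory neuron markers, however, summed to 19569 and 19834 CPM at 30d, below the 20610 and 20617 CPM of 0d, and 4 of the 14 had a positive log2 fold change. Red blood cell markers summed to between 276 and 515 CPM at 30d against 141 to 282 CPM at 0d. The part of these cell types in the values of the calcium channel genes at 30d was not tested.

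**Figure D4:**
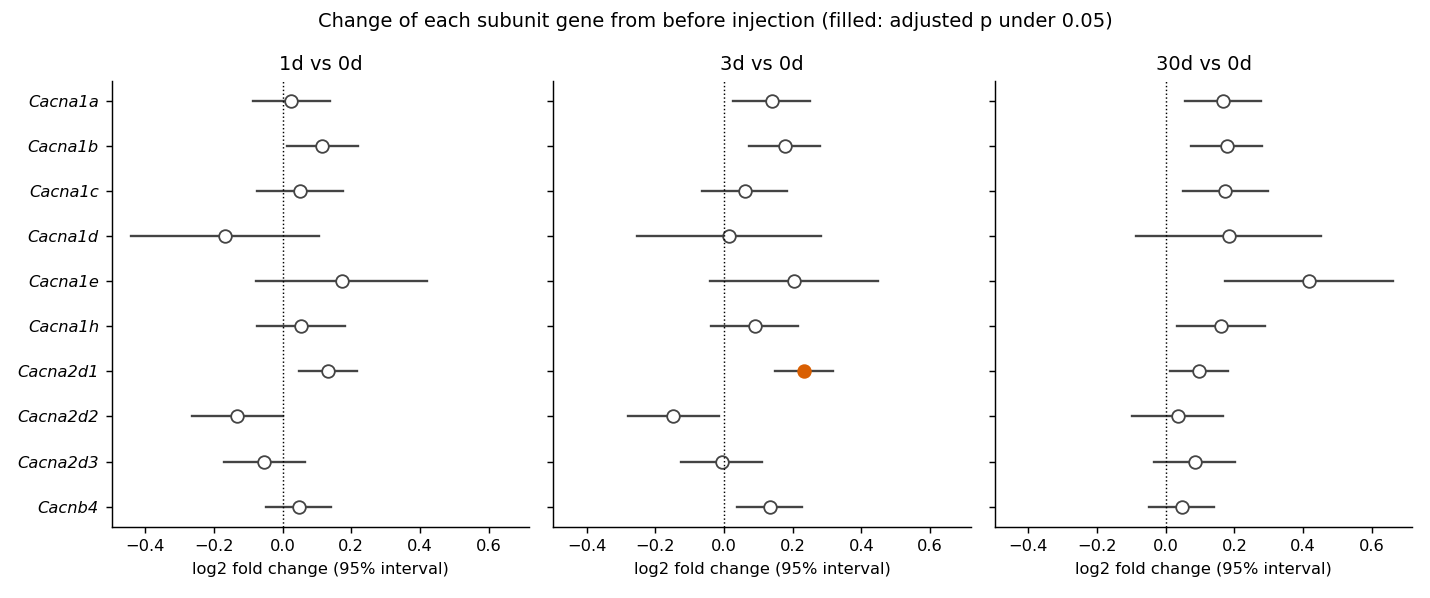
Log2 fold change of each of the 10 genes from 0d at 1d, 3d and 30d, with 95% intervals as bars and a filled point where the adjusted p was under 0.05. The single filled point is Cacna2d1 at 3d, at 0.23, and all 10 points lie above 0 at 30d.

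The deviation of each library from the mean of all 8, on the log2 CPM scale, shows how the libraries differ. In replicates 1 and 2 of 0d, 2 and 1 of the 10 genes lay above their own mean, with Cacna2d2 above in both. At 1d the replicates differed, with 7 and 1 genes above their mean. At 3d it was 8 and 6 genes, and at 30d 8 and 9. The group with the highest mean was 30d for 8 of the 10 and 3d for Cacna2d1 and Cacnb4, while the lowest was 0d for 7, 1d for Cacna1d and Cacna2d3, and 3d for Cacna2d2.

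**Figure D5:**
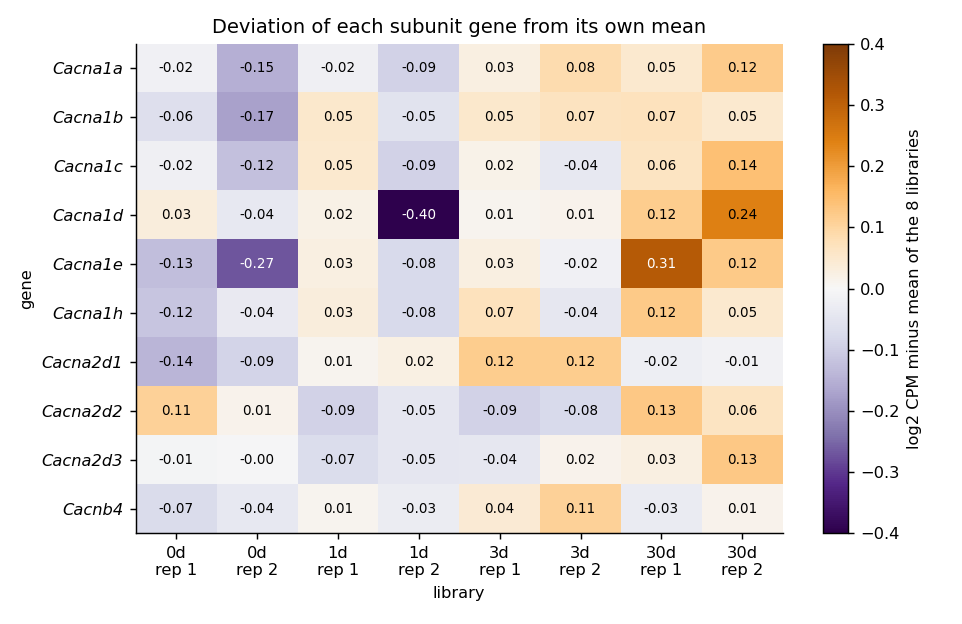
Log2 CPM of each of the 10 genes in each library minus the mean of that gene over the 8 libraries, as colours and printed values. The 0d columns are mostly below 0 and the 30d columns mostly above, and replicate 2 of 1d reaches -0.40 for Cacna1d.

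Between the later time points none of the 10 genes passed the threshold in edgeR, DESeq2 or limma-voom, and in each step unadjusted p was under 0.05 for 2 of them, where 4.24% of all genes passed from 1d to 3d and 13% from 3d to 30d. In the step from 1d to 3d, where edgeR called 50 of 17328 genes (0.289%), DESeq2 108 of the same 17328 (0.623%) and limma-voom 0.265%, 9 of the 10 were positive against 50.8% of all genes. Their median log2 fold change of 0.053 was 0.093 without replicate 1 of 1d and 0.0085 without replicate 2 of 1d. With the length trend removed it was 0.025, and 6 of the 10 were positive. In the step from 3d to 30d edgeR called 162 of 17328 genes (0.935%), DESeq2 377 of the 13296 genes with an adjusted p (2.84%) and limma-voom 0.993% of all genes, and 8 of the 10 were positive against 50.1% of all genes, with a median of 0.082, or 0.040 with 6 of the 10 positive once the length trend was removed. Both exceptions, Cacna2d1 and Cacnb4, had their highest values at 3d. Of the cell type markers, Calca and Tac1, which encodes the neuropeptide substance P, fell in this step by 0.43 and 0.28 on the log2 scale, and Apoe fell by 0.23 (edgeR adjusted p = 0.00201, 0.0110 and 0.0128). Myh1 rose by 1.35 (edgeR adjusted p = 0.0292).

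Summed levels of other cell types also differed between these time points. The 4 Schwann cell markers had sums of 7567 and 7618 CPM at 1d and 8838 and 8903 CPM at 3d, with all 4 positive. The 4 vascular and connective tissue markers had 281 to 299 CPM at 1d and 322 to 328 CPM at 3d, also with all 4 positive. The 5 red blood cell markers stood at 259 to 270 CPM at 1d and 181 to 189 CPM at 3d, with none positive. None of these markers was called by edgeR from 1d to 3d, and 1 vascular marker had an unadjusted p under 0.05. At 30d the Schwann cell sums were 5351 to 7580 CPM and the vascular sums 259 to 260 CPM, both below 3d with none of the 4 positive, and the red blood cell sums were 276 to 515 CPM with all 5 positive. Sensory neuron sums were lower at 30d than at 3d, with 3 of the 14 positive. The 5 macrophage markers summed to 54.5 to 57.0 CPM at 3d and 59.4 to 61.6 CPM at 30d, with all 5 positive and none called. The part of these transcripts in the values of the calcium channel genes was not tested.

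Genes that work with these channels were looked at as 4 lists. Over all genes tested, unadjusted p was under 0.05 for 4.24% to 13% by comparison, with the highest shares, 12.3% and 13%, in the comparisons of 30d with 0d and 3d. Of the 14 other subunit genes that passed the filter none was called in any of the 5 comparisons by edgeR, DESeq2 or limma-voom, with 0 to 2 at an unadjusted p under 0.05. Their median log2 fold change was -0.056 at 1d, 0.043 at 3d and 0.0069 at 30d. Cacna1s, the pore of skeletal muscle, had 1.59 ± 1.04 CPM before injection and 0.855 ± 0.744 CPM on day 30 (SD, n = 2 each), and the 6 skeletal muscle markers also varied at 30d, with sums of 19.1 to 102 CPM that overlapped with 0d and none of the 6 positive. None of the 29 partners and regulators was called by edgeR, a list that holds proteins of the release site, the RGK proteins that inhibit the channels and the thrombospondins that bind the α2δ protein of Cacna2d1. Their medians were -0.0015, -0.047 and 0.0041 at 1d, 3d and 30d, and 1 to 7 of them had an unadjusted p under 0.05 in a comparison. DESeq2 called Snap25 and Stac from 3d to 30d, 2 of the 29, where it called 2.84% of the genes with an adjusted p. None of the 21 genes of calcium stores, store-operated entry and clearance was called by edgeR, with medians of -0.0057, 0.013 and 0.089 and 0 to 6 genes at an unadjusted p under 0.05. DESeq2 called Atp2a3 and Atp2b3, both calcium pumps, from 3d to 30d, 2 of the 21 against the same 2.84%. Genes called by DESeq2 alone are named after their values were seen.

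Of the 18 genes that carry the calcium signal to the nucleus 1 was called from 3d to 30d, by edgeR, DESeq2 and limma-voom alike, where edgeR and limma-voom called 0.935% and 0.993% of all genes and DESeq2 2.84% of those with an adjusted p. Camk2b, a subunit of the calmodulin-dependent kinase CaMKII, had 73.5 and 70.2 CPM before injection, 71.3 and 73.9 on day 1, 71.7 and 68.2 on day 3, and 83.6 and 83.3 on day 30. It rose from 3d to 30d by 0.25 on the log2 scale (standard error 0.053, 95% interval 0.14 to 0.37, edgeR adjusted p = 0.0370). Against 0d its log2 fold change at 30d was 0.22 (edgeR adjusted p = 0.134), and both libraries lay above all 6 others. DESeq2 called it in this comparison too, beside 1.24% of the genes with an adjusted p, and limma-voom did not. The call from 3d to 30d was lost in 5 edgeR settings that left the log2 fold change between 0.22 and 0.29. It was 0.29 without replicate 1 of 3d (adjusted p = 0.316), 0.22 without replicate 2 of 3d (0.550) and 0.26 without replicate 2 of 30d (0.0834). It was 0.25 without robust estimation (0.0603) and 0.24 with the length trend removed (0.0508).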

How the data were processed

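RNA of 8 libraries of mouse DRG was sequenced, with 2 pools at each of 0d, 1d, 3d and 30d. The authors trimmed reads with cutadapt 2.10, mapped them to mm10 with STAR 2.7.5a and deposited raw counts per gene from featureCounts 2.0.1, with no strand setting, overlapping genes each counted and multi-mapped reads left out (per the file headers and the submitters' processing notes). Groups and replicates came from sample titles; the labels name no batch, and p-values measure the spread between pools.

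The counts were filtered with filterByExpr, scaled by TMM and fitted in edgeR 4.0.16 (R 4.3.3) over all 8 libraries, with no term but the time point. The quasi-likelihood F-test was robust and p-values were adjusted by Benjamini-Hochberg over 17328 genes, with calls under 0.05. Each standard error was obtained as the log2 fold change over the root of F. TMM factors were 0.993 to 1.01, and genes left out held at most 0.0120% of a library. The fit was tested on simulated data. Alternatives used DESeq2 1.42.0, limma 3.58.1 and other scalings, filters and trends.

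The 10 genes and the lists were chosen with earlier results of these data known. All 10 are named, and so are the 16 other subunit genes, with values over time for Cacnb3 and Cacna1s although neither was called. Genes of the other lists are named where called in at least 1 of 5 comparisons. The ratio of Cacna2d1 to Cacna2d2 and the GC trend were chosen after seeing the data. GC content and shared words came from GENCODE vM21 transcripts.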

Additional observations from a re-analysis of the deposited data

How the results depend on the processing

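Over 14 other settings and 8 fits that each left out 1 library, no gene of the 10 except Cacna2d1 at 3d was called in any of the 5 comparisons. The number called at 3d was 0 in place of 1 without robust estimation, with the length trend removed and with the GC trend removed, where the log2 fold change of Cacna2d1 was 0.23, 0.21 and 0.23, and 0 to 1 over the fits without 1 library, where it was 0.21 to 0.26. The cause was not tested; fits without 1 library have fewer samples. Values near 0 turned sign with the length trend removed for Cacna1d at 3d (-0.013), Cacna2d2 at 30d (-0.0051) and Cacnb4 at 30d (-0.019). Without 1 library in turn, ranges that crossed 0 were -0.041 to 0.097 for Cacna1a, -0.022 to 0.12 for Cacna1c, -0.39 to 0.024 for Cacna1d and -0.0036 to 0.11 for Cacna1h at 1d, -0.020 to 0.050 for Cacna1d and -0.035 to 0.022 for Cacna2d3 at 3d, and -0.014 to 0.083 for Cacna2d2 at 30d. Calls over all genes were less stable, with 26 to 111 in place of 60 at 1d, 1 to 121 in place of 38 at 3d, 0 to 202 in place of 4 at 30d, 5 to 260 in place of 50 for 3d against 1d and 12 to 525 in place of 162 for 30d against 3d. With the compared groups alone, edgeR called 64 genes at 1d, 121 at 3d and 0 at 30d. It then called 260 for 3d against 1d and 273 for 30d against 3d. Differences between replicates 1 and 2 were little correlated from one time point to another over all genes (correlations -0.021 to 0.086). Such correlations cannot exclude a pairing that acts on part of the genes. With the replicate number as a block Cacna2d1 at 3d had 0.23 (edgeR adjusted p = 0.0189), and no call of the 10 genes or of Camk2b was altered. Over all genes 69 in place of 4 were then called at 30d, and 77 in place of 50 for 3d against 1d. Other scalings moved the median of all genes by less than 0.1. With 2 pools a group, intervals of the low genes Cacna1d and Cacna1e are the widest.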
